A study of Homo sapiens with 9 samples.

Results

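The transcription factor NRF2 and its best known targets were examined in cultures labelled MDA-MB-231, a long-established human line from a breast tumour that lacks hormone receptors and ERBB2 amplification. The 9 genes, chosen by symbol from the 17911 genes of the count table and all found in it, were NFE2L2, KEAP1, GCLC, GCLM, TXNRD1, SRXN1, NQO1, OSGIN1 and HMOX1. They and the lists of related genes used below were chosen with earlier results of these data known. Their contrasts with all genes are therefore descriptive and no test. RNA sequencing had been done on 3 capsule samples and on 6 spheroid samples, of which the labels call 3 small and 3 large. Every sample, capsules and spheroids alike, carried one treatment text that names trastuzumab (an antibody to the ERBB2 receptor), 5% Matrigel and the liquid overlay method, with RNA taken after 96 h. The medium of all was RPMI with 10% serum, and the cell type label of all was WT. The title names spheroids and capsules together, and the question followed here is how the capsule libraries differed from the spheroid libraries.

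NRF2, the product of NFE2L2, is a transcription factor that is made continuously and degraded continuously. KEAP1 is the adaptor that hands it to a CUL3 and RBX1 ubiquitin ligase, and electrophiles or oxidants that modify KEAP1 let NRF2 accumulate. Together with a small MAF protein it then binds antioxidant response elements and drives genes for glutathione synthesis, thioredoxin reduction, quinone reduction, heme breakdown and NADPH supply. Its mRNA level is therefore only part of its activity, and the levels of its targets are commonly read beside it.

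The short core of that element, TGACNNNGC, was looked up in the RefSeq promoter windows of GRCh38.p14, which run from 250 bases before to 50 bases after an annotated start. These sequences are shown because the core is the motif through which NRF2 is known to act. Whether the matches bear on the levels below was not tested. The table held 11 windows for 8 of the 9 genes, and HMOX1 had none. On either strand, 4 windows of 3 genes held at least 1 match, while 4687 of all 35116 windows (13.3%) and 14.3% of the 19354 windows of genes in the count table did. Each excerpt runs from 150 bases before the start through the first 10 transcribed bases, 5′ to 3′ on the gene's strand, with the matches in capitals; those read as GCNNNGTCA lie on the opposite strand. None of these matches overlapped another.
KEAP1 (window 2, chr19:10502762-10502921, minus strand): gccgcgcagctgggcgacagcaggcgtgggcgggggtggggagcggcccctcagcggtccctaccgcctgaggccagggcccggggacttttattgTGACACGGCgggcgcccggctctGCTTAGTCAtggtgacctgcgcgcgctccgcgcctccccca
GCLM (chr1:93909421-93909580, minus strand): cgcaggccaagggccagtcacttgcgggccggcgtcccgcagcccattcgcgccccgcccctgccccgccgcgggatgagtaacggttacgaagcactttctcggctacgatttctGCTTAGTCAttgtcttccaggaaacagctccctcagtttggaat
TXNRD1 (window 1, chr12:104215629-104215788, plus strand): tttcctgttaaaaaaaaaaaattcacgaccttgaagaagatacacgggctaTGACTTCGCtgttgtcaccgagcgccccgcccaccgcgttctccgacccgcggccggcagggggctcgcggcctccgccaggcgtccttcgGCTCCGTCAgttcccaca
TXNRD1 (window 2, chr12:104286882-104287041, plus strand): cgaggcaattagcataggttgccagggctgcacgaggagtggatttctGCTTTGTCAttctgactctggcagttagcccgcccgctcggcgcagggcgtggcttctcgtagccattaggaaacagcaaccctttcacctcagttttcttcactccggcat
The same 9 letters, GCTTAGTCA, stood upstream of KEAP1 and of GCLM, with the match beginning at -31 and -34 bases from the start. The windows of NFE2L2, NQO1, GCLC, SRXN1 and OSGIN1 held no match, which says only that these letters are not in those windows.

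The 9 columns of counts fell into 3 sets by name. The 3 capsule columns each matched 1 sample, while 3 columns marked L.O. and 3 marked Sph.WT were spheroids of unstated size, so both formed 1 spheroid group of 6. Neither set could be tied to the small or the large samples, and the Sph.WT names also differed in style from the other 6. Total counts were 13212665 to 13735221 in the capsule libraries, 16605098 to 33263076 in the Sph.WT libraries and 15525725 to 15988167 in the L.O. libraries. Levels are given in CPM (counts per 1000000 counts of the library), and fold changes come from edgeR after TMM scaling of those totals. No sources used here say that replicates came from separate cultures, so the p-values measure only the spread between these libraries, which may be technical.

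The markers of the labelled line were not shared by the 3 sets. The 20 genes listed as abundant in MDA-MB-231 summed to 648 to 660 CPM in the capsule libraries, 7543 to 7821 CPM in the Sph.WT libraries and 894 to 1022 CPM in the L.O. libraries. CD44, a surface receptor abundant in this line, averaged 2.20 ± 0.327 CPM in capsules, 849 ± 41.0 CPM in Sph.WT and 5.72 ± 0.329 CPM in L.O. (SD, n = 3 each). CDKN2A, which lies in a region deleted in MDA-MB-231, averaged 524 ± 43.8 CPM in capsules, 0.716 ± 0.121 CPM in Sph.WT and 556 ± 122 CPM in L.O. libraries (SD, n = 3 each). The 9 measured genes listed for HEK293, a human embryonic kidney line with neuronal features, summed to 2067 to 2228 CPM in capsule, 115 to 161 CPM in Sph.WT and 1965 to 2124 CPM in L.O. libraries. CKB, a creatine kinase, made up most of the capsule and L.O. sums, at 1411 CPM in capsules, 28.9 CPM in Sph.WT and 1355 CPM in L.O. libraries on average, while TUBB3, a neuronal tubulin of the same list, was lower in capsules than in both other sets, at 36.9, 108 and 91.3 CPM in capsules, Sph.WT and L.O. Of these 9 genes, 4 had no count in any Sph.WT library, which allows up to 3 counts, or 0.0902 to 0.181 CPM a library, by counting error alone. The libraries labelled capsule and L.O. thus went against the MDA-MB-231 label while the Sph.WT libraries did not, and every comparison with Sph.WT below moves with this marker difference, whose part in the results was not tested. Markers of immune cells (2 of 5 measured), fibroblasts (5 of 6) and endothelium (3 of 4) summed to at most 8.31, 47.0 and 0.984 CPM in capsules, 51.3, 198 and 10.3 CPM in Sph.WT, and 12.2, 102 and 2.63 CPM in L.O. libraries.

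**Figure D1:**
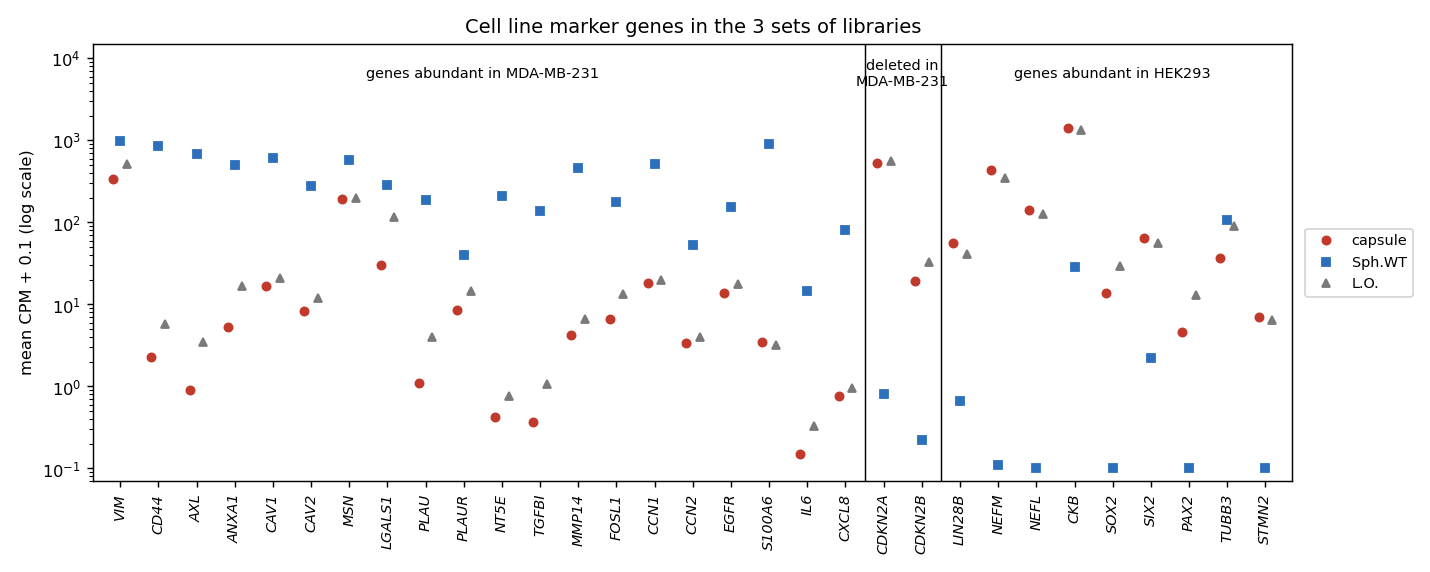
Mean CPM plus 0.1 on a log axis of the cell line markers in capsule (circles), Sph.WT (squares) and L.O. libraries (triangles), n = 3 libraries a set. All 20 markers of MDA-MB-231 are highest in Sph.WT, whereas CDKN2A stands at 524 CPM in capsule, 0.716 CPM in Sph.WT and 556 CPM in L.O. libraries.

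For 7 of the 9 NRF2 pathway genes, all but KEAP1 and HMOX1, the Sph.WT libraries stood above both the capsule and the L.O. libraries. The share of all genes that did so was not counted, so this number is no result about these genes. Of all genes tested, 43.1% were called higher in Sph.WT than in L.O. Against the Sph.WT libraries, 8 of the 9 were lower in capsules and only HMOX1 was higher. Against the L.O. libraries, the changes were smaller: NFE2L2, GCLM, GCLC and TXNRD1 were higher in capsules, HMOX1 and OSGIN1 were lower, and KEAP1, NQO1 and SRXN1 did not pass the test. In bulk RNA, fewer expressing cells and less RNA per cell cannot be told apart. A call is a Benjamini-Hochberg adjusted p under 0.05 in edgeR's quasi-likelihood test, adjusted over all genes tested. All 9 passed the filter on low counts in every comparison. In the comparison with Sph.WT, 86.1% of 16157 genes were called, 42.9% as lower and 43.2% as higher, so being called there says little about these 9 genes. At least 2-fold lower were 6 of the 9, against 25.4% of all genes. As the 9 were chosen with earlier results of these data known, that contrast is no test of them. Against L.O. 50.1% of 15919 genes were called, 24.7% as higher and 25.4% as lower.

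**Figure D2:**
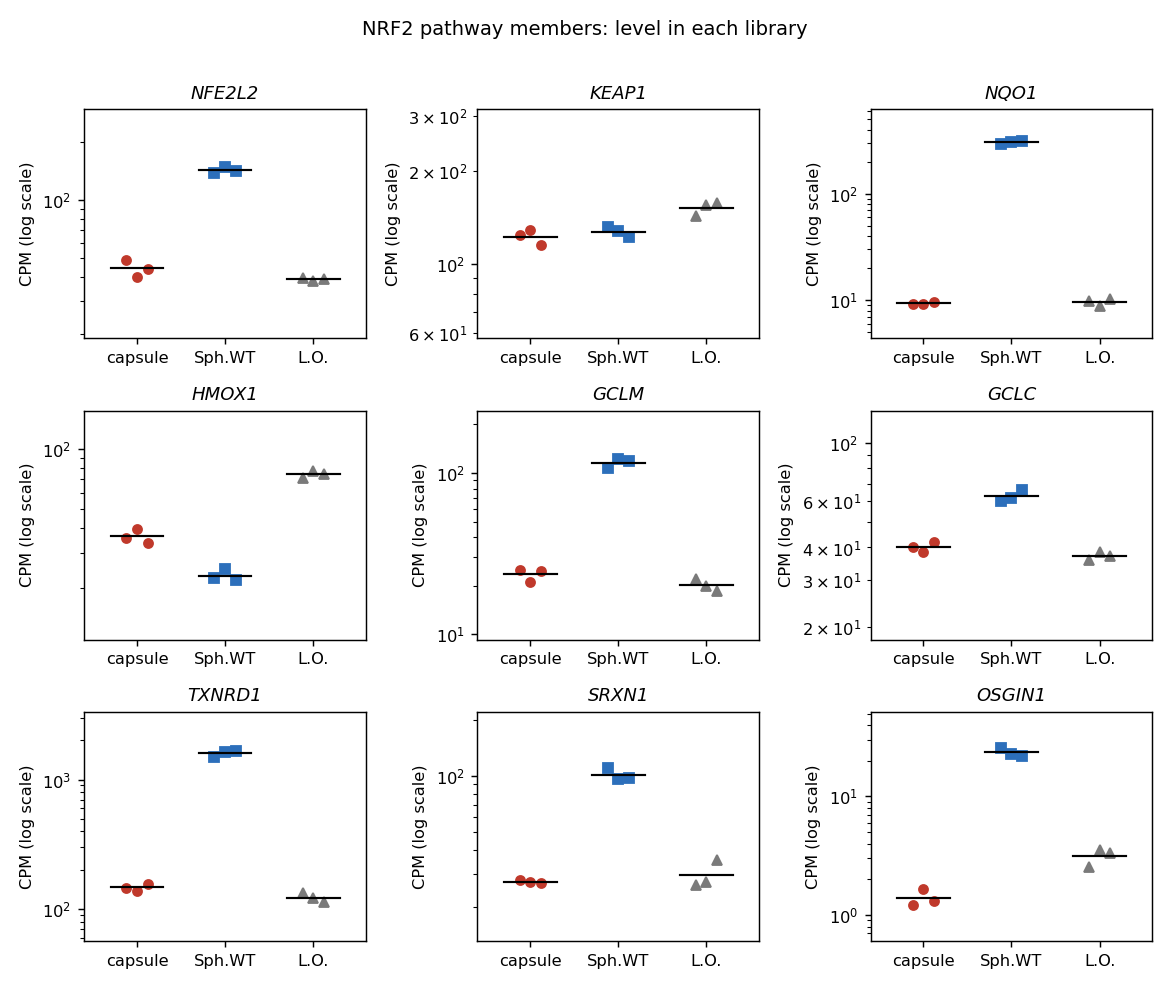
CPM (log axis) of each gene in every library of the capsule, Sph.WT and L.O. sets, with the mean of each set as a bar. TXNRD1 reaches 1504 to 1661 CPM in Sph.WT libraries, and HMOX1 alone is lowest in that set.

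NFE2L2 (chr2:177230303-177264727, GRCh38.p14, as all gene positions here) encodes NRF2 itself. It had 48.8, 40.0 and 43.9 CPM in the capsule libraries, 139, 148 and 142 CPM in the Sph.WT libraries and 39.4, 38.1 and 38.9 CPM in the L.O. libraries. No 2 sets overlapped, and Sph.WT stood far above the other 2. The log2 fold change was -1.97 ± 0.0834 (SE) for capsule over Sph.WT (edgeR adjusted p = 2.77e-14) and 0.34 ± 0.0872 for capsule over L.O. (adjusted p = 0.00346). With scaling by library totals alone, the second value was 0.19 and was no longer called (adjusted p = 0.0773).

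KEAP1 (chr19:10486125-10503356), the repressor of NRF2, differed least of the 9 from Sph.WT. It had 124, 129 and 115 CPM in capsules, 131, 128 and 122 CPM in Sph.WT and 143, 155 and 157 CPM in L.O. libraries. The capsule and Sph.WT ranges overlapped, and both lay below L.O. Its log2 fold change was -0.33 ± 0.0726 (SE) for capsule over Sph.WT (edgeR adjusted p = 3.49e-04) and -0.16 ± 0.0726 for capsule over L.O. (adjusted p = 0.0706). These calls turned on the scaling: with library totals alone, they were -0.05 (adjusted p = 0.483) and -0.31 (adjusted p = 0.00137), and without L.O. replicate 1 the second was also called (-0.20, adjusted p = 0.0404). Between the spheroid sets, KEAP1 was 0.21 higher on the log2 scale in Sph.WT than in L.O. (adjusted p = 0.0118), and with library totals it was lower, at -0.26 (adjusted p = 0.00195). The call was also lost with DESeq2's size factors in edgeR (adjusted p = 0.0827), with DESeq2's Wald test (adjusted p = 0.0858) and without L.O. replicate 1 (adjusted p = 0.0570).

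GCLC and GCLM encode the catalytic and the modifier subunit of glutamate-cysteine ligase, the rate-limiting enzyme of glutathione synthesis. GCLM (chr1:93885199-93909430) had 25.1, 21.0 and 24.6 CPM in capsules, 107, 122 and 119 CPM in Sph.WT and 22.0, 19.8 and 18.5 CPM in L.O. libraries. All 3 Sph.WT values were over 4 times any other, and the capsule and L.O. values overlapped. Its log2 fold change was -2.58 ± 0.0900 (SE) over Sph.WT (edgeR adjusted p = 1.43e-15) and 0.37 ± 0.105 over L.O. (adjusted p = 0.00643). GCLC (chr6:53497341-53545101) had 40.3, 38.5 and 42.1 CPM in capsules, 59.8, 61.6 and 66.2 CPM in Sph.WT and 35.7, 38.5 and 37.2 CPM in L.O. libraries. Its Sph.WT values were again the highest, with a smaller distance to the other sets than for GCLM. The log2 fold change of GCLC was -0.91 ± 0.0776 over Sph.WT (adjusted p = 1.58e-09) and 0.27 ± 0.0813 over L.O. (adjusted p = 0.0107). For both subunits the increase over L.O. lost its call under library totals, at 0.23 for GCLM (adjusted p = 0.0827) and 0.12 for GCLC (adjusted p = 0.242).

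TXNRD1 encodes the cytosolic thioredoxin reductase, a selenoenzyme that returns thioredoxin to its reduced form with NADPH. At chr12:104215779-104350307 it holds EID3, another gene of the table, so some reads may belong to that gene, since the strand setting of the counting is not given in the sources used here. It had 146, 138 and 158 CPM in capsules, 1504, 1638 and 1661 CPM in Sph.WT and 133, 122 and 114 CPM in L.O. libraries. The 3 sets did not overlap, and the capsule values lay just above those of L.O. Its log2 fold change was -3.72 ± 0.0758 (SE) for capsule over Sph.WT (edgeR adjusted p = 5.88e-19). Over L.O. it was 0.41 ± 0.0758 (adjusted p = 2.01e-04), and of the 4 increases over L.O. this alone was also called with library totals (0.26, adjusted p = 0.00757).

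SRXN1 (chr20:646615-653200) encodes sulfiredoxin, which repairs over-oxidized peroxiredoxins. It had 27.6, 27.2 and 26.6 CPM in capsules, 110, 96.0 and 97.6 CPM in Sph.WT and 26.2, 27.0 and 35.6 CPM in L.O. libraries. The Sph.WT values were well above the rest, while L.O. replicate 3 stood above the other 2 libraries of its set and the capsule range lay inside the L.O. range. The log2 fold change was -2.17 ± 0.0822 (SE) over Sph.WT (edgeR adjusted p = 4.90e-15) and 0.02 ± 0.109 over L.O. (adjusted p = 0.873).

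NQO1 (chr16:69709401-69726560), a quinone reductase and the most used readout of NRF2 activity, differed most between the sets. It had 9.23, 9.25 and 9.64 CPM in capsules, 291, 309 and 310 CPM in Sph.WT and 9.85, 8.76 and 10.2 CPM in L.O. libraries. Mean CPM in Sph.WT was 32.4 times that of capsules and 31.5 times that of L.O., while the capsule values lay within the L.O. range. The log2 fold change was -5.29 ± 0.0870 (SE) for capsule over Sph.WT (edgeR adjusted p = 3.36e-20), which 1486 of 16157 genes exceeded in size. Over L.O. it was 0.11 ± 0.126 (adjusted p = 0.493), and -0.04 with library totals.

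OSGIN1 (chr16:83953240-83966332), a growth inhibitor induced by oxidative stress, was the scarcest per kilobase in all 3 sets and overlaps NECAB2 in the annotation. Its level was 1.21, 1.67 and 1.32 CPM in capsules, from 16, 23 and 18 counts. In Sph.WT it was 25.8, 22.7 and 22.1 CPM, and in L.O. 2.56, 3.50 and 3.35 CPM. None of the 3 sets overlapped, and every capsule library was below every L.O. library. The log2 fold change was -4.33 ± 0.162 (SE) over Sph.WT (edgeR adjusted p = 3.83e-15) and -1.01 ± 0.249 over L.O. (adjusted p = 0.00234). It was the only one of the 9 called at least 2-fold lower in capsules than in L.O., against 5.54% of all genes. Over the 11 other settings the value over L.O. ran from -1.16 to -0.92. The decrease was called in all 11, but whether it reached 2-fold depended on the setting.

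HMOX1 (chr22:35381096-35394207) encodes heme oxygenase 1, which breaks heme down to biliverdin, iron and carbon monoxide and also answers to heme through the repressor BACH1. It had 35.8, 39.5 and 33.5 CPM in capsules, 22.4, 24.8 and 22.0 CPM in Sph.WT and 71.3, 77.5 and 74.2 CPM in L.O. libraries. In contrast to the other targets, L.O. was highest and Sph.WT lowest, with capsules between them and no overlap. Its log2 fold change was 0.37 ± 0.0972 (SE) for capsule over Sph.WT (edgeR adjusted p = 0.00168) and -0.89 ± 0.0831 for capsule over L.O. (adjusted p = 1.01e-07). Both were called under all 11 other settings tried, as was the decrease in Sph.WT relative to L.O. of -1.22 ± 0.0894 (adjusted p = 1.13e-11).

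**Figure D3:**
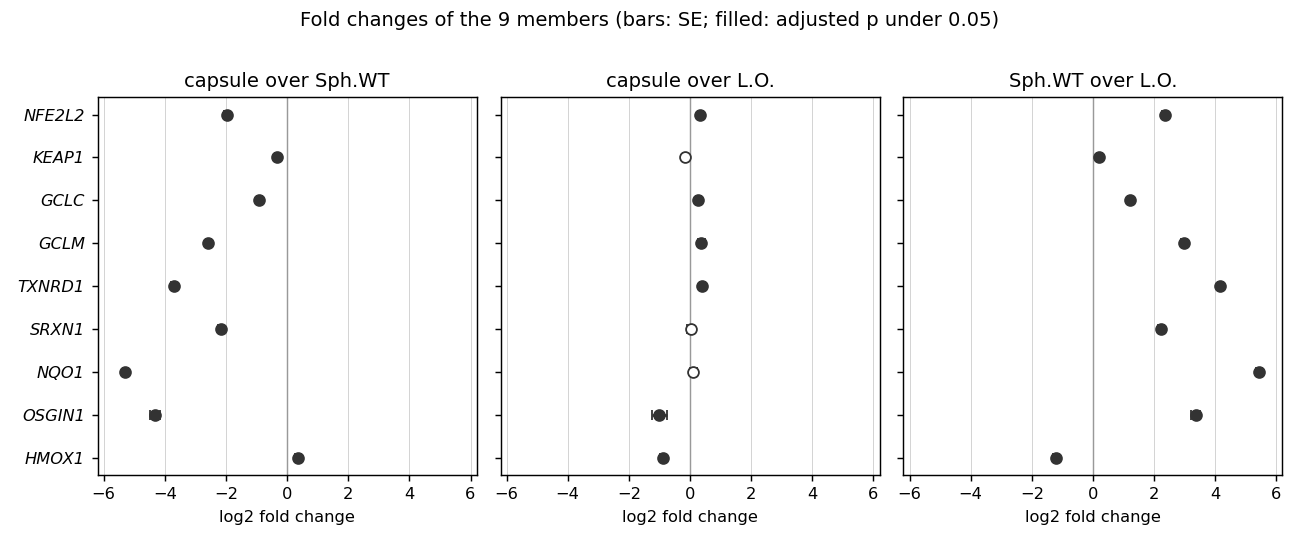
Log2 fold changes ± SE of the 9 genes for capsule over Sph.WT, capsule over L.O. and Sph.WT over L.O. libraries (n = 3 a set), filled where the adjusted p was under 0.05. NQO1 lies at -5.29 for capsule over Sph.WT, 0.11 for capsule over L.O. and 5.44 for Sph.WT over L.O., and HMOX1 takes the opposite side of the line from its neighbours in each outer panel.

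The same genes told the spheroid sets apart. For Sph.WT over L.O., 8 of the 9 were called higher and HMOX1 lower, in a comparison where 85.5% of 16985 genes were called, 43.1% as higher and 42.4% as lower. The log2 fold changes ± SE were 2.35 ± 0.0833 for NFE2L2, 1.22 ± 0.0786 for GCLC, 2.99 ± 0.0951 for GCLM and 4.16 ± 0.0857 for TXNRD1. They were 2.24 ± 0.0988 for SRXN1, 5.44 ± 0.0910 for NQO1 and 3.37 ± 0.143 for OSGIN1. For KEAP1 the value was only 0.21 ± 0.0733, although its CPM was lower in every Sph.WT library than in every L.O. library. As given above, KEAP1 was called lower with library totals, and its call was lost under other settings. The median of the 9 was 2.35, against 0.01 for all genes tested. As the 9 were chosen with earlier results of these data known, that contrast is no test of them. The comparison of the spheroid sets and the one of capsules with Sph.WT share the Sph.WT libraries.

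When the 6 spheroid libraries were taken as 1 group, none of the 9 genes was called between capsules and spheroids. The pooled comparison called 3.76% of 16985 genes, 390 higher (2.3%) and 249 lower (1.47%) in capsules (99 higher and 260 lower with scaling by library totals). Without any 1 of the 3 capsule libraries, edgeR called no gene. All 9 log2 fold changes were negative, from -4.36 ± 1.70 (SE) for NQO1 (edgeR adjusted p = 0.148) and -3.51 ± 1.13 for OSGIN1 (adjusted p = 0.119) to -0.26 ± 0.109 for KEAP1 (adjusted p = 0.160). KEAP1, NQO1 and OSGIN1 had an unadjusted p under 0.05, as did 4929 of the 16985 genes, and DESeq2's Wald test called those 3 and TXNRD1 lower, where it called 16.5% of all genes lower. NQO1 ranged from 8.76 to 310 CPM within the spheroid group, with a median of 151 CPM, and TXNRD1 from 114 to 1661 CPM with a median of 819 CPM. The common biological coefficient of variation was 66.0% in this comparison, against 7.32% for capsule over Sph.WT and 7.33% for capsule over L.O.

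Division by exon length allowed the 9 to be ordered within a set. KEAP1 led in capsules with 32.6 ± 1.80 CPM per kb, ahead of TXNRD1 with 22.0 ± 1.45 and HMOX1 with 15.1 ± 1.27 CPM per kb (SD, n = 3 each). TXNRD1 led in Sph.WT with 239 ± 12.6 CPM per kb, followed by NQO1 with 93.2 ± 3.21, SRXN1 with 37.5 ± 2.82 and KEAP1 with 33.8 ± 1.22 CPM per kb, the last 2 of which lie near each other relative to their SDs. KEAP1 also led in L.O., at 40.4 ± 2.06 CPM per kb, with HMOX1 next at 30.9 ± 1.29 and TXNRD1 at 18.4 ± 1.41 CPM per kb. NQO1 ranked 8 of 9 in capsules, at 2.88 ± 0.0701 CPM per kb, and in L.O., at 2.96 ± 0.237 CPM per kb. Exon lengths joined all annotated transcripts of a gene, so these ranks are approximate.

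Beyond these 9, 87 genes in 7 lists cover the partners of NRF2 and the systems its targets serve. GPX7, AKR1B10, AKR1C3, PTGR1, ABCC3 and SOD3 passed the filter only through the Sph.WT libraries, where they are high, so they had to come out lower in capsules over Sph.WT and are left out of the counts of that comparison. Of the 80 related genes tested in both capsule comparisons, 51 were lower and 22 higher in capsules over Sph.WT, shares of 63.8% and 27.5%, with a median log2 fold change of -0.56. Among the 15267 genes of the table tested in both, 39.8% were lower and 45.7% higher, with a median of 0.11. The lists were chosen with earlier results of these data known, so their contrasts with all genes are no test. In capsules over L.O., 35 of 81 tested were higher and 11 lower, where 24.7% and 25.4% of all genes were, with a median of 0.15 against -0.01 for all genes. The second split depended on the scaling: with library totals, 19 were higher and 21 lower, and without capsule replicate 3 the lower count was 7. That scaling moved the median log2 fold change of all genes by -0.15 for capsule over L.O., by 0.28 for capsule over Sph.WT and by -0.46 for Sph.WT over L.O. The share of higher among all called genes then changed to 28.0% for capsule over L.O., from 49.4% with TMM, and to 36.1% for Sph.WT over L.O., from 50.4% with TMM. In the pooled comparison, 3 of the 87 were called, or 3.45% against 3.76% of all genes, all higher in capsules, namely GGCT, SLC3A2 and PRDX4, and none of them was called without any 1 of the capsule libraries. Apart from these 3, the genes named below were chosen after their values were seen.

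**Figure D4:**
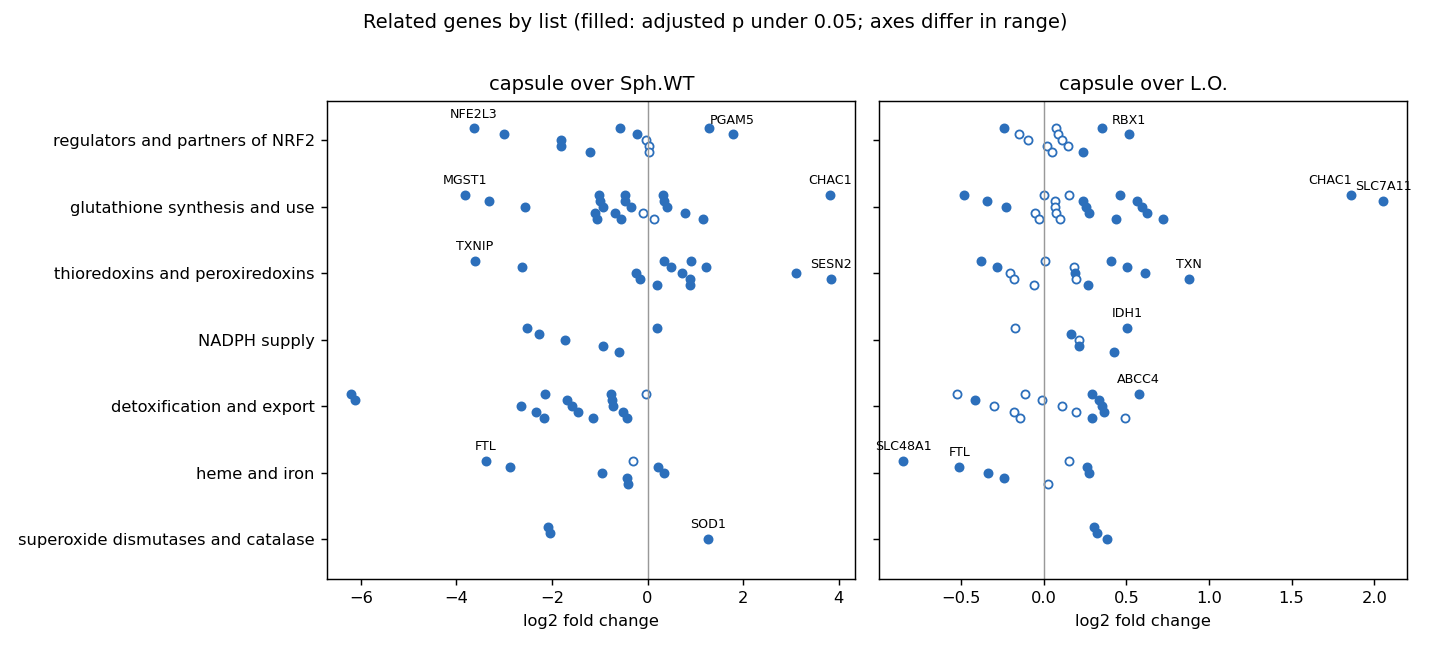
Log2 fold changes of the related genes by list for capsule over Sph.WT (left, 80 genes) and capsule over L.O. (right, 81 genes), filled where the adjusted p was under 0.05. Genes with a mean under 0.5 CPM in either set are not drawn, and the 2 axes differ in range; SLC7A11 and CHAC1 stand furthest right against L.O., at 2.05 and 1.86.

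Among the 12 regulators and partners of NRF2, 7 were lower and 2 higher in capsules over Sph.WT (5 higher and 6 lower with library totals). SQSTM1, the autophagy receptor p62 that sequesters KEAP1 and is itself an NRF2 target, averaged 202 ± 17.9 CPM in capsules, 1345 ± 108 CPM in Sph.WT and 264 ± 21.3 CPM in L.O. (SD, n = 3 each). Its log2 fold change was -3.01 over Sph.WT (edgeR adjusted p = 7.80e-17) and -0.24 over L.O. (adjusted p = 0.0186). NFE2L3, a relative of NRF2, was lower over Sph.WT by a log2 value of -3.63 (adjusted p = 1.16e-17), while PGAM5, a mitochondrial phosphatase that binds KEAP1, was higher by 1.78 (adjusted p = 2.76e-14). Against L.O., 3 of the 12 were higher and 1 lower, the highest being RBX1 at 0.51 (adjusted p = 3.48e-05).

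The 2 largest differences between capsules and L.O. libraries among the 87 were glutathione genes. Of 22 tested, 11 were higher and 3 lower (7 and 3 with library totals). SLC7A11, the cystine importer that feeds glutathione synthesis and an NRF2 and ATF4 target, had 55.8, 54.6 and 67.4 CPM in capsules, 74.5, 74.7 and 87.1 CPM in Sph.WT and 17.7, 16.4 and 13.2 CPM in L.O. libraries. The capsule values were thus over 3 times those of L.O. and just under those of Sph.WT, with log2 fold changes of 2.05 over L.O. (edgeR adjusted p = 7.23e-11) and -0.68 over Sph.WT (adjusted p = 5.20e-07). CHAC1, an enzyme that degrades glutathione and an ATF4 target, averaged 32.8 ± 1.82 CPM in capsules, 1.85 ± 0.579 CPM in Sph.WT and 9.99 ± 0.674 CPM in L.O. (SD, n = 3 each). It was higher in capsules in both comparisons, by 3.82 over Sph.WT (adjusted p = 1.71e-14) and 1.86 over L.O. (adjusted p = 1.72e-10).

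SLC3A2, the heavy chain that partners SLC7A11, averaged 373 ± 20.0 CPM in capsules, 180 ± 19.5 CPM in Sph.WT and 279 ± 2.54 CPM in L.O. (SD, n = 3 each). Its log2 fold change over the pooled spheroids was 0.65 ± 0.112 (SE, edgeR adjusted p = 0.0246). GGCT, another enzyme of glutathione breakdown, was 0.85 ± 0.165 higher over the pooled spheroids (adjusted p = 0.0329). With scaling by library totals neither passed, at adjusted p of 0.112 for SLC3A2 and 0.125 for GGCT. In capsules over Sph.WT, 13 of 21 glutathione genes were lower and 6 higher. The microsomal transferase MGST1 had 15.5 ± 1.11 CPM in capsules, 182 ± 3.39 CPM in Sph.WT and 12.7 ± 2.08 CPM in L.O. libraries (SD, n = 3 each).

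In the list of thioredoxins and peroxiredoxins, 10 of 14 genes were higher and 4 lower in capsules over Sph.WT, where TXNRD1 was lower. Of all genes tested in both capsule comparisons, 45.7% were higher and 39.8% lower. The 10 include the sestrins SESN1, SESN2 and SESN3, which are neither thioredoxins nor peroxiredoxins. SESN2, a stress-induced sestrin, averaged 161 ± 9.01 CPM in capsules, 9.25 ± 1.11 CPM in Sph.WT and 148 ± 3.06 CPM in L.O. (SD, n = 3 each). TXNIP, which binds and inhibits thioredoxin, averaged 37.8 ± 2.18 CPM in capsules, 381 ± 22.0 CPM in Sph.WT and 48.2 ± 4.63 CPM in L.O. (SD, n = 3 each). Against L.O., 6 of the 14 were higher and 2 lower (4 higher and 5 lower with library totals). TXN, the thioredoxin that TXNRD1 reduces, had 281, 273 and 258 CPM in capsules and 165, 157 and 168 CPM in L.O. libraries, a log2 fold change of 0.88 (edgeR adjusted p = 1.66e-08). In Sph.WT it had 269, 250 and 270 CPM. Over Sph.WT TXN was among the 4 lower genes, at -0.23 (adjusted p = 0.00334), the same direction as TXNRD1. That call was lost with library totals. PRDX4, the peroxiredoxin of the endoplasmic reticulum, was higher over the pooled spheroids by 0.59 ± 0.112 (SE, adjusted p = 0.0316, and 0.127 with library totals).

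For NADPH supply, 5 of 6 genes were lower in capsules over Sph.WT and PGD was higher. ME1, the cytosolic malic enzyme, averaged 15.7 ± 1.83 CPM in capsules, 74.7 ± 10.1 CPM in Sph.WT and 15.0 ± 1.40 CPM in L.O. (SD, n = 3 each). Against L.O., 4 of the 6 were higher and none lower, led by IDH1, the cytosolic isocitrate dehydrogenase, at 0.50 (edgeR adjusted p = 4.50e-05). With library totals, that count was 2 higher and 1 lower.

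Of the 16 detoxification and export genes tested in both capsule comparisons, 15 were lower in capsules over Sph.WT and none higher, where 39.8% of all genes were lower, with a median log2 fold change of -1.52. AKR1B10, AKR1C3, PTGR1 and ABCC3 are not among these 16, since the filter fixed their direction. ABCC3, an exporter of conjugates, had 0.218 to 0.303 CPM in capsules, 759 to 844 CPM in Sph.WT and 0.129 to 0.320 CPM in L.O. libraries, from 2 to 5 counts in each capsule and L.O. library. AKR1C3, an aldo-keto reductase, averaged 0.321 ± 0.113 CPM in capsules, 235 ± 62.1 CPM in Sph.WT and 0.615 ± 0.329 CPM in L.O. (SD, n = 3 each), but reads may be split among its near-identical paralogs. Against L.O., 6 of the 16 were higher and 1 lower in capsules (3 and 5 with library totals). EPHX1, the microsomal epoxide hydrolase, was the lower one at -0.41 (edgeR adjusted p = 1.44e-04), and ABCC4, another exporter, was higher at 0.57 (adjusted p = 2.60e-05).

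Heme and iron genes beside HMOX1 were lower in 5 of 8 cases and higher in 2 over Sph.WT (3 lower and 2 higher with library totals). Over L.O., 4 of the 8 were lower and 2 higher (4 lower and 0 higher with library totals). FTL, the ferritin light chain that stores the iron HMOX1 releases, averaged 362 ± 13.3 CPM in capsules, 3137 ± 131 CPM in Sph.WT and 572 ± 49.5 CPM in L.O. (SD, n = 3 each), where pseudogene copies may share reads. Its log2 fold change was -3.39 over Sph.WT (edgeR adjusted p = 7.25e-19) and -0.51 over L.O. (adjusted p = 1.60e-05), so ferritin and HMOX1 had opposite signs in the first comparison and the same sign in the second. SLC48A1, a heme transporter, was the most lowered over L.O., at -0.85 (adjusted p = 5.81e-06). Of the superoxide dismutases and catalase, SOD1 was higher in capsules than in both other sets. It averaged 516 ± 10.2 CPM in capsules, 178 ± 5.59 CPM in Sph.WT and 439 ± 10.5 CPM in L.O. (SD, n = 3 each). SOD2 and CAT were lower over Sph.WT. Over L.O. they were higher, at 0.32 (adjusted p = 0.00119) and 0.31 (adjusted p = 0.00739). All 3 genes of this list tested over L.O. were thus higher (1 of the 3 with library totals).

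The genes whose profile over the 9 libraries was most like that of NQO1 were TLR4, ZNF702P and CCL28, with root mean square differences of 0.109, 0.110 and 0.112 in centred log2(CPM + 0.5) among 16976 genes. All 3 were at or near 0 in capsule and L.O. libraries and at 17.1, 14.2 and 14.1 CPM in Sph.WT, so their likeness to NQO1 rests on the pseudocount of 0.5. For HMOX1 they were LINC02982, EPHB3 and ONECUT3, at 0.0852, 0.0989 and 0.117. LINC02982 averaged 0.296, 0.0100 and 1.23 CPM and ONECUT3 0.223, 0 and 0.913 CPM in capsules, Sph.WT and L.O., so the likeness of these 2 to HMOX1 also rests on the pseudocount. EPHB3, an ephrin receptor, averaged 5.24 ± 0.755 CPM in capsules, 3.04 ± 0.321 CPM in Sph.WT and 11.1 ± 0.735 CPM in L.O. (SD, n = 3 each), the same order as HMOX1.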

How the data were processed

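The deposited table gives counts of reads per gene for 17911 Entrez IDs in 9 columns, whole numbers without normalization. The submitters' processing notes name hg38, featureCounts and limma without versions; aligner, annotation and strand setting are not given in the sources used here. All 9 columns were used. From the deposited counts, CPM by library total was computed, and CPM per kb with joined exon lengths of GENCODE release 29 (known for 96.9% of genes). Fold changes came from edgeR 4.0.16 in R 4.3.3 (filterByExpr, TMM factors of 0.817 to 1.158, quasi-likelihood test, Benjamini-Hochberg adjustment over all genes tested, threshold 0.05). Capsules were fitted against the 6 spheroid columns, against L.O. alone and against Sph.WT alone, and Sph.WT against L.O. in a fit of all 9 columns. Giving the comparisons of capsules with each spheroid set as results of their own was decided after the data were seen. Alternatives were DESeq2 1.42.0 with its Wald test, its size factors in edgeR, library totals, no filter, a replicate block and leaving out each library. Scripts were tested on simulated data. No replicate pair agreed within counting noise. Genes to name were all 9 members and, per list, the 2 largest called changes each way in the pooled comparison. The 9 members and all lists were chosen with earlier results of these data known. Other tools were Python 3.11.15, pandas 2.3.3, numpy 2.4.6 and scipy 1.17.1.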

Additional observations from a re-analysis of the deposited data

Results flagged for a closer look

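The check covered 43 genes, the 9 members and the related genes picked by the size of their change. Of these, 15 had capsule effects of opposite sign, both called, against L.O. and Sph.WT, with a called difference between the 2 effects. Of the 15267 genes of the whole table tested in both comparisons, 18.9% met the same conditions. Most of the related genes among the 43 were picked after their values were seen, so their number is no result about them. That difference was taken as the log2 fold change of Sph.WT over L.O. in the fit of all 9 columns. The 2 effects come from separate fits, so their own difference is close to it but not equal. Both effects share the capsule libraries. Among the 9 pathway members it was 2.35 for NFE2L2 (edgeR adjusted p = 1.17e-17), 2.99 for GCLM (adjusted p = 1.52e-18), 1.22 for GCLC (adjusted p = 1.04e-12), 4.16 for TXNRD1 (adjusted p = 6.46e-22) and -1.22 for HMOX1 (adjusted p = 1.13e-11).

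Among the related genes of the 43 it was 0.61 for CUL3, 2.78 for SLC7A11, 1.15 for TXN, -1.22 for SESN1, -3.35 for SESN3, 2.26 for IDH1, 1.05 for TKT, 1.13 for ABCC4, 2.74 for AKR1B1 and 2.45 for SOD2. MGST1 and CAT, named above, were not among the 43 but met the same conditions. MGST1 had 0.44 over L.O., -3.83 over Sph.WT and 4.30 for Sph.WT over L.O. CAT had 0.31, -2.04 and 2.39 in the same order. With scaling by library totals, the capsule effect over Sph.WT turned positive for CUL3 (0.06, edgeR adjusted p = 0.498) and TXN (0.04, adjusted p = 0.542), so the opposite signs of these 2 genes rest on the scaling. Only 1 of the 3 superoxide dismutase and catalase genes tested over L.O. was then called, so SOD2 and CAT did not both keep their calls. Among the members, NFE2L2, GCLM and GCLC kept their signs but not their calls over L.O. with library totals (adjusted p = 0.0773, 0.0827 and 0.242). These members then no longer met the conditions. The MDA-MB-231 markers differ between the same 2 spheroid sets, and their part in these differences was not tested.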

How the results depend on the processing

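Outside the pooled comparison, counts of calls moved by over 1.5 times only under library totals and, for related genes lower over L.O., without capsule replicate 3. Under library totals, capsules over L.O. had 2275 genes, 1 member and 19 related genes higher and 21 related genes lower, and Sph.WT over L.O. had 2 members lower. That scaling turned 3 member changes round: KEAP1 to -0.26 for Sph.WT over L.O., and NQO1 to -0.037 and SRXN1 to -0.12 for capsule over L.O. SRXN1 also ranged from -0.052 without L.O. replicate 1 to 0.175 without L.O. replicate 3, never past the threshold. Leaving out each library gave 7 to 15 related genes lower in capsules over L.O. The cause was not tested.

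The pooled comparison depended on most choices. It called 99 genes and 1 related gene higher with library totals. DESeq2's Wald test called 1216 genes higher and 2809 lower, 4 members lower, and 10 related genes higher and 21 lower. Leaving out each library gave 0 to 342 genes higher, 0 to 262 lower and 0 to 3 related genes higher, with 0 whenever a capsule library was missing. With the spheroid sets as separate levels, whose spread is then left out of the error, 6600 genes were higher and 6043 lower, 9 members lower, and 24 related genes higher and 48 lower. Against L.O. alone, 3934 genes were higher and 4036 lower, 4 members higher and 2 lower, and 35 related genes higher and 11 lower. Against Sph.WT alone, 6977 genes were higher and 6932 lower, 1 member higher and 8 lower, and 22 related genes higher and 57 lower, the 6 whose direction the filter fixed included. Signs opposite to the pooled ones were seen against L.O. alone for NFE2L2 (0.34), NQO1 (0.11), GCLM (0.37), GCLC (0.27), TXNRD1 (0.41) and SRXN1 (0.024), and against Sph.WT alone for HMOX1 (0.37).

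With the replicate number as a block, the pooled comparison called 0 genes higher, 0 lower and 0 related genes, and no member's call changed in any comparison. Same-numbered libraries did not deviate together (r from -0.116 to 0.0233 over 9 pairs), and capsule 1 correlated better with L.O. 3 (0.0764) than with L.O. 1 (-0.0812). With n = 3 libraries a set, these values cannot tell whether same-numbered libraries were made together. OSGIN1 in capsules, at 16 to 23 counts a library, is the value most limited by depth.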
